A study of Prunus persica with 8 samples.

Results

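CCD4 (Prupe.1G255500), a carotenoid cleavage dioxygenase gene on the plus strand of chromosome Pp01 at 26613248 to 26616233 in version 2 of the peach genome, was examined in the branch tips of peach trees with pillar or standard growth. It is 1 gene of the 26873 in the expression table and 1 of the 20055 that averaged 0.5 TPM or more and were tested. The gene was chosen by its measured difference between the growth habits in these same trees, so its levels and its pillar minus standard difference are given as a description with no test. To see whether the difference was shared by a segment of the chromosome, CCD4 was set beside the 264 other genes that start within 1 Mb of it, of which 210 were tested.

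Carotenoid cleavage dioxygenases are enzymes that split carotenoids with oxygen into smaller apocarotenoids, some of which are pigments, scents or hormones. CCD4 works in plastids, and in peach it is known as the gene behind white fruit flesh, where it breaks down the carotenoids that colour yellow flesh. The hormones abscisic acid and strigolactone are also made from carotenoids, through other cleavage enzymes. The sample labels give no flesh colour for any tree.

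RNA-seq libraries, 1 per tree, came from lateral branch tips of 4 pillar and 4 standard trees, all mature, untreated and grown in the same field. The trees descend from 1 selfed parent that carried the pillar trait in heterozygous form. Pillar trees are homozygous for the recessive tac1 allele of TAC1 (Tiller Angle Control 1), a gene that makes branches grow outward. The study gives standard trees of this population as homozygous for the TAC1 allele, with upright trees as a separate class. Each library was therefore a separate tree, with no repeat library of any tree, and the standard trees' data had also served an earlier study. Each library pooled several shoot tips of 1 branch. Pillar trees 4 and 7 were read in lane 8 of the sequencer and the other 6 trees in lane 6, so lane and growth habit partly coincide, and growth habit cannot be told apart from a difference in harvest or sequencing that went with it.

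Between 18429259 and 23994336 reads per tree fell on genes. TAC1 (Prupe.2G194000) served as the check of the labels. It had 0.80, 0.83, 1.15 and 1.27 TPM in pillar trees 4, 7, 8 and 10, against 23.8, 17.2, 25.9 and 28.2 TPM in standard trees 7, 8, 9 and 10 (log2 fold change -3.99, SE 0.19, limma adjusted p 4.31e-05). TPM is a level of transcripts scaled for gene length and for the depth of the library, and fold changes are differences of mean log2(TPM + 0.5), pillar minus standard. The tissue could not be checked by its marker genes, because the gene tables used here pair very few gene identifiers with product names.

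CCD4 was lower in all pillar trees than in all standard trees. Its level was 14.9 TPM in pillar tree 4, 10.9 TPM in pillar tree 7, 7.12 TPM in pillar tree 8 and 4.99 TPM in pillar tree 10, against 18.1 TPM in standard tree 7, 23.5 TPM in standard tree 8, 27.1 TPM in standard tree 9 and 29.7 TPM in standard tree 10. The highest pillar tree and the lowest standard tree lay close together, 1.22-fold apart, whereas the extremes of the 8 trees were far apart. CCD4 averaged 9.48 ± 4.36 TPM over the pillar trees and 24.6 ± 5.01 TPM over the standard trees (SD, n = 4 each), a ratio of 0.385. On the log2 scale the difference was -1.42 (SE 0.31), and 99 of the 20055 tested genes had a lower value. In bulk tips, fewer cells that express CCD4 and less CCD4 RNA per cell cannot be told apart.

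**Figure D1:**
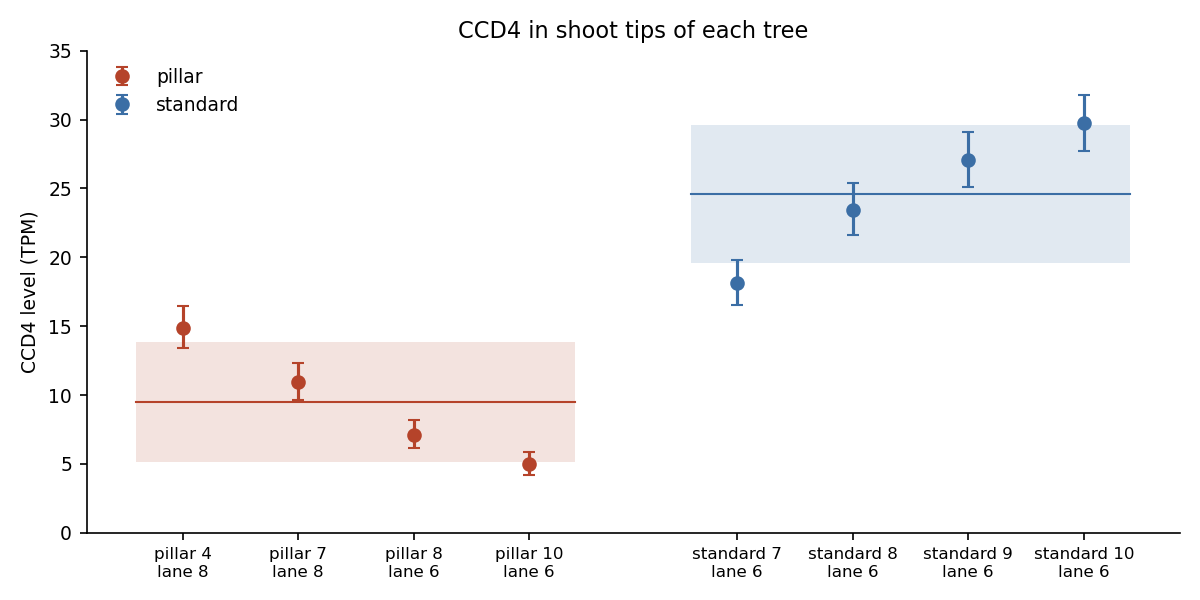
CCD4 level in TPM in each tree, pillar trees on the left and standard trees on the right, with the exact Poisson 95% interval of its reads (bars) and the mean ± SD of each growth habit (line and band, n = 4). The pillar trees run between 4.99 and 14.9 TPM and the standard trees between 18.1 and 29.7 TPM, and pillar trees 4 and 7, from lane 8, are the highest pillar trees.

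These levels rest on 373, 251, 193 and 142 reads in pillar trees 4, 7, 8 and 10 and on 486, 616, 730 and 833 reads in standard trees 7, 8, 9 and 10. Read as counting error only, the 95% Poisson intervals (exact) put pillar tree 4 at 13.4 to 16.5 TPM and standard tree 7 at 16.6 to 19.8 TPM, which just clear each other. Along the order from pillar tree 10, the lowest, to standard tree 10, the highest, only standard trees 8 and 9 and standard trees 9 and 10 had overlapping intervals.

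Pillar trees differed among themselves more than standard trees did. The highest was 2.98-fold above the lowest in pillar trees and 1.64-fold in standard trees. The SD of log2(TPM + 0.5) for CCD4 was 0.65 in pillar trees, against 0.30 in standard trees. The median tested gene had SDs of 0.30 in pillar trees and 0.20 in standard trees, and CCD4's SD was above that of 88.7% of tested genes in pillar trees and 71.8% in standard trees. Ranked among the tested genes of its own library, CCD4 lay above 48.3%, 44.6%, 35% and 26.8% of them in pillar trees 4, 7, 8 and 10, against 57.0%, 65.4%, 69.5% and 70.4% in standard trees 7, 8, 9 and 10. It was thus a gene of moderate level in every tree, below the middle of the tested genes in each pillar tree and above it in each standard tree.

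The order within pillar trees ran with the sequencing lane. The mean CCD4 level was 12.9 TPM in the lane 8 pillar trees and 6.05 TPM in the lane 6 pillar trees. Within lane 6, where 2 pillar trees face 4 standard trees, the log2 fold change of CCD4 was -1.93 (SE 0.23), against -1.42 over all 8 trees. The part of the lane in the spread among pillar trees was not tested.

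None of the genes closest to CCD4 differed between the growth habits as CCD4 did. The 5 nearest tested genes on each side span 62.5 kb with CCD4 among them, and their log2 fold changes lay between -0.19 and 0.21, with a median of -0.07. Among all other tested genes the 5th and 95th percentiles were -0.45 and 0.42, so this range was an ordinary one. CCD4 was chosen by its difference, so the smaller differences of these genes follow largely from the choice. The growth habits overlapped in all 10 genes, and limma (adjusted p under 0.05 or the study's own criteria) called 0 of them, with 0 at an unadjusted p of at most 0.05 and 0 called by limma-voom. Among all tested genes, 2.93% did not overlap, and 2.23% met the criteria by limma and 2.36% by limma-voom. An adjusted p under 0.05 was found for 0.12% and an unadjusted p of at most 0.05 for 4.76%. At these shares 0 would be usual for any 10 genes, so the counts alone say little. Prupe.1G255400, the nearest gene upstream and on the opposite strand, was barely expressed, with 0.60, 0.52, 0.55 and 0.21 TPM in pillar trees 4, 7, 8 and 10, against 0.45, 0.57, 0.67 and 0.54 TPM in standard trees 7, 8, 9 and 10. Prupe.1G255300, the next one and on the same strand as CCD4, had 70.7, 48.7, 67.5 and 65.6 TPM in pillar trees 4, 7, 8 and 10, against 61.1, 72.1, 82.6 and 70.2 TPM in standard trees 7, 8, 9 and 10. The growth habits overlap in both genes, and the log2 fold change of Prupe.1G255300 was -0.18 (SE 0.15, limma adjusted p 0.902).

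Downstream, Prupe.1G255600 lies on the opposite strand and begins 20 bases past the end of CCD4, so that the genes point at each other. It had 3.11, 4.52, 5.83 and 4.49 TPM in pillar trees 4, 7, 8 and 10, against 3.8, 4.45, 4.98 and 4.95 TPM in standard trees 7, 8, 9 and 10. The growth habits overlapped and the log2 fold change was -0.04 (SE 0.19, limma adjusted p 0.973). Whether reads were counted by strand is not given in the sources used here, so reads that cross the 20 bases could have gone to either gene. The most abundant of the 10, Prupe.1G255900, had 123, 103, 91.4 and 83.6 TPM in pillar trees 4, 7, 8 and 10, against 119, 99.5, 98.9 and 116 TPM in standard trees 7, 8, 9 and 10. These values overlap as well, although pillar trees 4, 7, 8 and 10 fall in the same order as for CCD4. Prupe.1G256100 had 5.33, 2.97, 2.99 and 2.89 TPM in pillar trees 4, 7, 8 and 10, against 4.08, 3.97, 3.87 and 4.08 TPM in standard trees 7, 8, 9 and 10. Only pillar tree 4 was above the standard trees, and the log2 fold change of -0.19 (SE 0.20, limma adjusted p 0.902) was -0.38 without that tree and -0.39 within lane 6. Within lane 6, the growth habits did not overlap in 3 of the 10 nearest genes, all lower in pillar trees, and 3 had an unadjusted p of at most 0.05 by limma. In that fit, with 2 pillar trees, 28.6% of all tested genes did not overlap and 17.1% had such a p, and 0 of the 10 met the criteria.

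**Figure D2:**
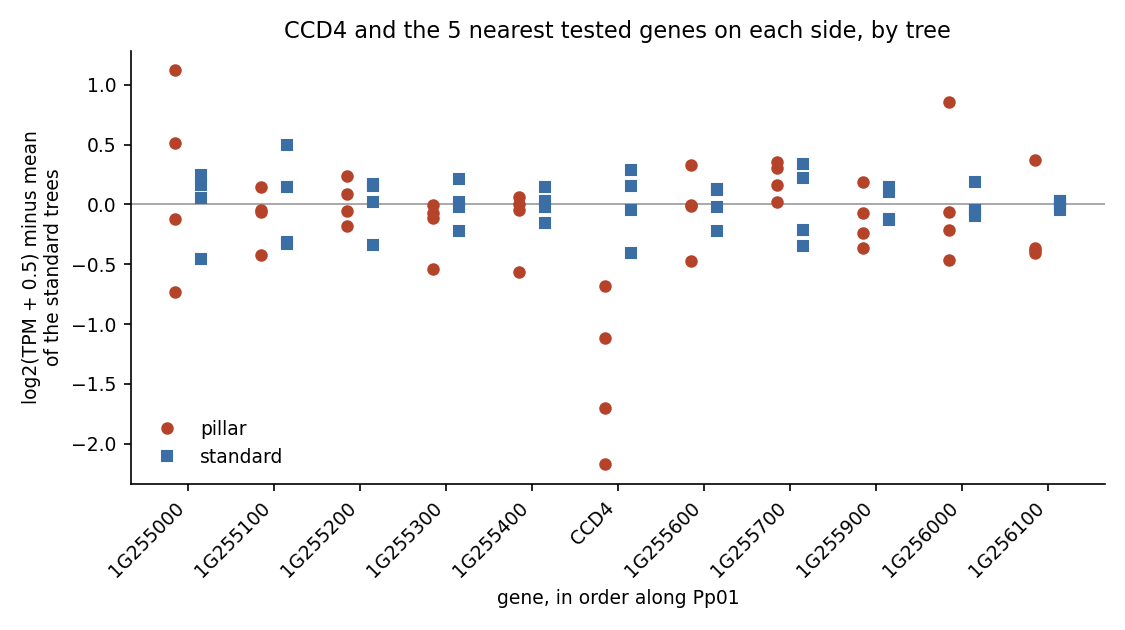
log2(TPM + 0.5) of CCD4 and of the 5 nearest tested genes on each side, in their order on Pp01, each minus the mean of the standard trees, with pillar trees as circles on the left of each gene and standard trees as squares on the right. Only for CCD4, which was chosen by this difference, do all 4 pillar trees lie below all 4 standard trees. The growth habits overlap in the 10 other genes, in Prupe.1G256100 through pillar tree 4 alone.

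CCD4 was also set against the sum of these 10 genes within each library, as a description. CCD4 amounted to 4.96%, 4.79%, 3.01% and 2.29% of their summed TPM in pillar trees 4, 7, 8 and 10, against 7.13%, 9.70%, 10.2% and 10.8% in standard trees 7, 8, 9 and 10. The log2 difference of this share was -1.39, while the sum itself differed by -0.09. The share therefore mostly restates the difference of CCD4 itself (-1.42) and is not separate evidence.

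Over the whole 1 Mb window the neighbours behaved like the genes of the rest of the genome. Their median log2 fold change was -0.09, equal at this rounding to the median of all tested genes, and 63 were positive and 147 negative, as were 6153 and 13901 of all other tested genes. The criteria of the study (unadjusted p of at most 0.05, a fold change over 1.5 in either direction and an average of 5 or more reads in both growth habits) were met by 4 of the 210 tested neighbours, or 1.90%, beside 2.23% of all tested genes. Of these 4, 2 were higher and 2 lower in pillar trees, where 1.12% and 1.11% of all tested genes were called in those directions. At an adjusted p under 0.05, limma called 0 neighbours, beside 0.12% of all tested genes, and limma-voom called 0 as well. An unadjusted p of at most 0.05 was found for 6 neighbours (2.86%), beside 4.76% of all tested genes. Pillar and standard trees did not overlap in 4 neighbours (1.90%, 1 higher and 3 lower), beside 2.93% of all tested genes. The neighbours' log2 fold changes ran between -0.77 and 1.14, and 0 of the 210 lay as far from 0 as CCD4. CCD4 was chosen by its difference, and 99 of the 20055 tested genes had a lower value, so this follows largely from the choice.

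The window was read again with fewer libraries. Within lane 6, 14 neighbours (6.67%) met the criteria, beside 5.97% of all tested genes. Of these neighbours 12 were lower in pillar trees, as were 995 of the 1197 genes other than CCD4 called in that fit. Leaving out pillar tree 4 alone, which had the highest value of several genes, gave 4 neighbours (1.90%) beside 3.65% of all tested genes. In each of these fits the share among the neighbours stayed near or below that of all genes. The 54 neighbours that were not tested had at most 0.758 TPM in any tree, and 27 of them were listed at 0 in all trees.

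**Figure D3:**
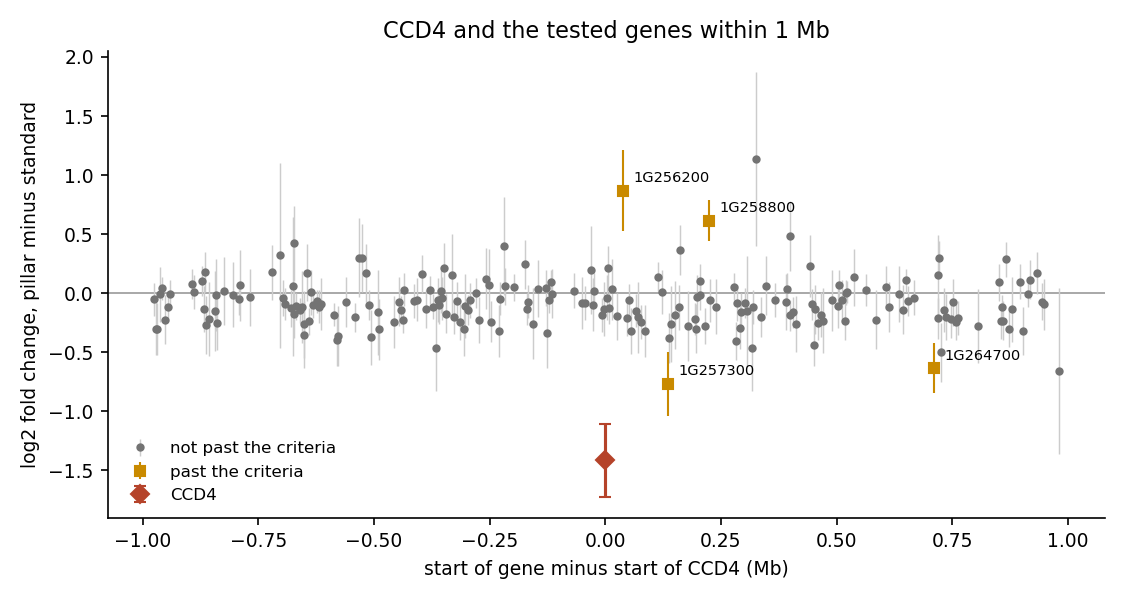
Log2 fold change, pillar minus standard, with its SE (bars), of CCD4 and the 210 tested genes within 1 Mb, against the distance of their starts from the start of CCD4 in Mb. CCD4, which was chosen by its difference, lies at -1.42, below every neighbour. The 4 neighbours past the criteria all lie on the downstream side.

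The neighbours past the criteria were all downstream of CCD4, 4 of 101 tested genes there against 0 of 109 upstream, and they did not move in 1 direction. The nearest, Prupe.1G256200, starts 39.1 kb from CCD4 and is matched to TPS10, a trehalose phosphate synthase gene of Arabidopsis. It had 46.5, 24.4, 17.2 and 14.6 TPM in pillar trees 4, 7, 8 and 10, against 14.3, 8.37, 13.8 and 14.4 TPM in standard trees 7, 8, 9 and 10. All pillar values were above all standard values, but pillar tree 10 by very little, and the log2 fold change was 0.87 (SE 0.34, limma adjusted p 0.902). It no longer met the criteria without pillar tree 4 (0.54), without pillar tree 7 (0.84), without standard tree 8 (0.68) or within lane 6 (0.33). Its pillar trees fall in the same order as CCD4's, high in tree 4 and low in tree 10, while its mean lay on the other side of the standard trees.

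Prupe.1G257300, matched to a transporter of the EamA family, was the neighbour past the criteria that was lower and nearest to CCD4. It had 16.9, 8.86, 5.81 and 9.23 TPM in pillar trees 4, 7, 8 and 10, against 17.6, 14, 18.1 and 16.7 TPM in standard trees 7, 8, 9 and 10. Pillar tree 4 lay among the standard trees and the other pillar trees below them, with a log2 fold change of -0.77 (SE 0.27, limma adjusted p 0.902), and the criteria were not met without pillar tree 8 (-0.55). Prupe.1G258800, which has a match in Arabidopsis of no named function, had 46.1, 67.7, 72.7 and 59.6 TPM in pillar trees 4, 7, 8 and 10, against 45.3, 46.4, 35.3 and 32.6 TPM in standard trees 7, 8, 9 and 10. It was higher in pillar trees but for tree 4, with a log2 fold change of 0.61 (SE 0.18, limma adjusted p 0.793, the lowest among the neighbours), and fell short of the criteria without pillar tree 7 (0.56), pillar tree 8 (0.53), standard tree 9 (0.56) or standard tree 10 (0.52). Prupe.1G264700, which carries no name in the tables used here, had 139, 136, 175 and 222 TPM in pillar trees 4, 7, 8 and 10, against 187, 281, 309 and 263 TPM in standard trees 7, 8, 9 and 10. Its growth habits overlap, its log2 fold change was -0.64 (SE 0.21, limma adjusted p 0.888), and it fell short of the criteria without pillar tree 4 (-0.55), pillar tree 7 (-0.54) or standard tree 9 (-0.54), and within lane 6 (-0.37).

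The study lists 2 neighbours that did not meet the criteria here. IAR3 (Prupe.1G260400), named for an Arabidopsis enzyme that frees auxin from an amino acid conjugate, had 27.2, 2.79, 1.74 and 6.32 TPM in pillar trees 4, 7, 8 and 10, against 0.80, 2.73, 2.70 and 3.93 TPM in standard trees 7, 8, 9 and 10. Pillar tree 4 alone was far above the rest, so that the largest log2 fold change of the window, 1.14, had an SE of 0.74 (limma adjusted p 0.902) and was 0.41 without that tree. Prupe.1G253100, with a domain of unknown function, had 33.3, 19.6, 89.1 and 22.4 TPM in pillar trees 4, 7, 8 and 10, against 25.1, 23.8, 24.2 and 29.6 TPM in standard trees 7, 8, 9 and 10. Here pillar tree 8 stood apart, and the log2 fold change was 0.40 (SE 0.41, limma adjusted p 0.902) with that tree and -0.06 without it.

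Besides Prupe.1G256200, the neighbours whose growth habits did not overlap were Prupe.1G247400, Prupe.1G249500 and Prupe.1G267400, with log2 fold changes of -0.18, -0.23 and -0.30. These differences were small, and none of the 3 met the criteria.

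Along Pp01, the called genes near CCD4 lay on its downstream side. Of the tested genes that start 2 Mb to 1 Mb upstream of CCD4, 0 of 82 met the criteria by limma, as did 0 of 109 in the 1 Mb before it. At an unadjusted p of at most 0.05 there were 3 and 0 genes in these bands, beside 4.76% of all tested genes, and limma-voom called 0 in both. The nearest called gene upstream, Prupe.1G231100, starts 2.02 Mb away. The share was 3.96% (4 of 101) in the 1 Mb downstream and 2.34% (3 of 128) in the next 1 Mb. Within 2 Mb on both sides 7 of 420 were called (1.67%), beside 2.23% of all tested genes. The share was larger farther out, with 5.14% (9 of 175) between 5 and 2 Mb upstream and 5.25% (21 of 400) between 2 and 5 Mb downstream, 13 of these higher and 8 lower in pillar trees. On Pp01 outside the window, 107 of 4288 tested genes met the criteria (2.50%).

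**Figure D4:**
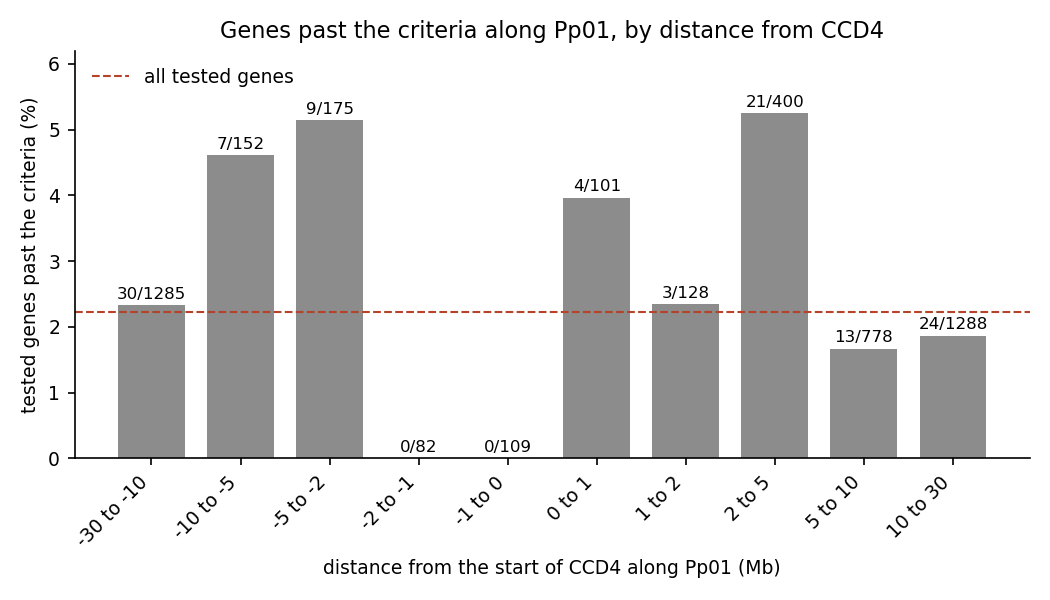
Share of tested genes past the criteria (percent) in bands of distance from the start of CCD4 along Pp01, negative upstream, with called and tested genes above each bar and the share of all tested genes, 2.23%, as a dashed line. The 2 bands from 2 Mb upstream to CCD4 hold 0 called genes, and the highest bar, 5.25%, is the band of 2 to 5 Mb downstream.

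Part of that last band came from 1 cluster, chosen after the values were seen. From Prupe.1G327300 to Prupe.1G329000, 4.49 to 4.65 Mb downstream of CCD4, 9 of 17 tested genes met the criteria, 6 higher and 3 lower. Among all tested genes the share was 2.23%. The stretch was drawn to begin and end at called genes, which raises its own share. At an adjusted p under 0.05 limma called 0 of the 17. Prupe.1G328300, a member of the abscisic acid category described further on, is among the 9.

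The genes most like CCD4 were sought by Pearson's r of log2(TPM + 0.5) over the 8 trees, which carries the difference between the growth habits and is a description. The 5 highest were Prupe.8G082700 (r = 0.98), Prupe.6G187200 (0.98), Prupe.1G154500 (0.96), Prupe.1G259600 (0.95) and Prupe.2G086600 (0.95), none of which has a product name in the tables used here. Prupe.8G082700 had 18.9, 18.6, 16.6 and 15.3 TPM in pillar trees 4, 7, 8 and 10, against 20.5, 20.4, 21.1 and 22.2 TPM in standard trees 7, 8, 9 and 10. It followed CCD4 nearly tree by tree (Spearman's rho 0.98) over a range far narrower than CCD4's, with a log2 fold change of -0.28 (SE 0.11, limma adjusted p 0.902). None of the 5 met the criteria. After the mean of each growth habit was taken off, their r was between 0.82 and 0.95. It was 0.88 to 0.95 over the 6 trees left without pillar trees 8 and 10, those farthest from the median of CCD4. These genes were picked as the highest r of all tested genes over the same 8 trees, so high values here follow in part from the choice. Of the 10 genes most like or unlike CCD4, only 1 was picked again once growth habit means were taken off.

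The 5 genes with the lowest r were Prupe.2G158100 (-0.95), Prupe.3G086900 (-0.95), Prupe.1G437700 (-0.93), Prupe.8G084800 (-0.93) and Prupe.2G157800 (-0.92). Prupe.2G158100 and Prupe.2G157800, which are close neighbours on Pp02, are matched to thioesterase proteins. They start at 21132748 and 21116328 on the chromosome that also carries TAC1, which starts at 23233979. Whether their differences between the growth habits go with the TAC1 region was not tested. Prupe.2G157800 had 6.51, 7.52, 10.0 and 8.94 TPM in pillar trees 4, 7, 8 and 10, against 3.60, 3.76, 4.03 and 2.56 TPM in standard trees 7, 8, 9 and 10. Its growth habits were well apart, with a log2 fold change of 1.13 (SE 0.19, limma adjusted p 0.135). Prupe.2G158100 had 20.4, 23.4, 33.3 and 33.2 TPM in pillar trees 4, 7, 8 and 10, against 16.7, 19.6, 16.8 and 14.9 TPM in standard trees 7, 8, 9 and 10, with a log2 fold change of 0.66 (SE 0.18, limma adjusted p 0.768), and did not meet the criteria without pillar tree 8 (0.56) or pillar tree 10 (0.56). These were the only 2 of the 10 genes past the criteria.

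Of the 10 most like or unlike genes, Prupe.1G259600 is the only neighbour of CCD4 within 1 Mb, starting 0.281 Mb downstream. It had 5.61, 4.15, 4.02 and 3.58 TPM in pillar trees 4, 7, 8 and 10, against 5.34, 5.36, 6.38 and 6.35 TPM in standard trees 7, 8, 9 and 10, and its pillar tree 4 lay among the standard trees. Its log2 fold change was -0.41 (SE 0.16, limma adjusted p 0.902). An r of at least 0.8 was found in 3 neighbours (1.43%), beside 2.73% of all tested genes, and an r of -0.8 or below in 3 neighbours (1.43%), beside 0.399% of all tested genes. The median r was 0.26 in the neighbours as in all tested genes, so that likeness to CCD4 over trees was not a general feature of the window.

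CCD1 (Prupe.1G449200) is the only other carotenoid cleavage gene that could be identified. It encodes an enzyme that, in plants where it has been studied, acts outside the plastid and releases volatile apocarotenoids. It had 13.8, 2.15, 6.05 and 10.9 TPM in pillar trees 4, 7, 8 and 10, against 13.3, 13.3, 17.4 and 16.6 TPM in standard trees 7, 8, 9 and 10. It was lower in 3 of the 4 pillar trees than in any standard tree, and pillar tree 4 lay within the standard range. CCD1 met the criteria, with a log2 fold change of -1.09 (SE 0.46, limma adjusted p 0.902), but no longer when pillar tree 7 (-0.60), pillar tree 8 (-1.04) or any single standard tree (-1.15 to -1.02) was left out.

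Both cleavage genes were thus highest among pillar trees in tree 4, but they differed in the rest of the order. CCD4 stood at 1.08, 5.08, 1.18 and 0.458 times the TPM of CCD1 in pillar trees 4, 7, 8 and 10, against 1.37, 1.77, 1.56 and 1.79 times in standard trees 7, 8, 9 and 10. The ratio was steady in standard trees and scattered in pillar trees on both sides of them, with pillar tree 7, the lowest in CCD1, far above. Over the 8 trees the r between CCD4 and CCD1 was 0.53 and Spearman's rho 0.81. The r was 0.81 without pillar trees 8 and 10, and -0.01 after the mean of each growth habit was taken off.

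The study placed CCD4 and CCD1 in a category of genes related to abscisic acid, a hormone made from carotenoids that holds back bud growth and mediates the response to drought. The category was drawn from genes that differed in these same trees, so it is not independent evidence of any direction. Of its 9 members besides CCD4, all tested, 8 had a positive log2 fold change, and the median was 0.64, beside -0.09 over all tested genes. The criteria were met by 4 of them, 3 higher and 1 lower (CCD1), beside 2.23% of all tested genes, and nothing is read from this because such differences chose the category. At an adjusted p under 0.05 limma called 0 of the 9, as did limma-voom, and 4 had an unadjusted p of at most 0.05 by limma. CCD4 and CCD1 were the only 2 of the 10 with a negative value.

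**Figure D5:**
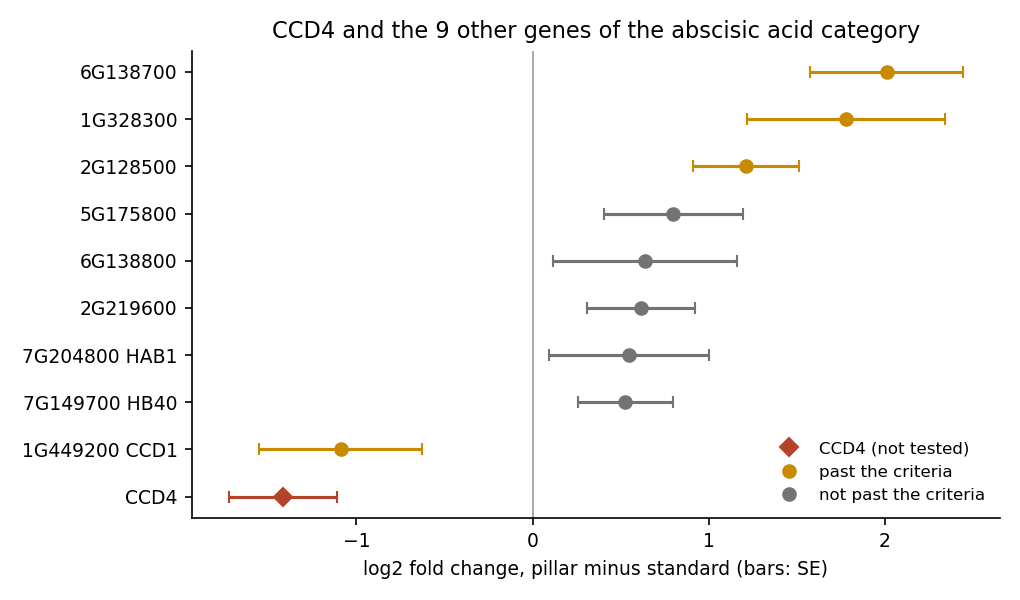
Log2 fold change, pillar minus standard, with its SE (bars), of CCD4 and of the 9 other genes in the category related to abscisic acid. CCD4 (-1.42) and CCD1 (-1.09) lie left of 0, and the 8 other genes lie right of it, between 0.53 and 2.01.

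The other members past the criteria were higher in pillar trees, where CCD4 was lower. Prupe.6G138700, matched to an Arabidopsis short-chain dehydrogenase, an enzyme family that includes one making abscisic acid, had 39.7, 15.2, 8.43 and 9.51 TPM in pillar trees 4, 7, 8 and 10, against 3.40, 3.93, 2.38 and 3.79 TPM in standard trees 7, 8, 9 and 10. Its growth habits did not overlap. Its log2 fold change was 2.01 (SE 0.43, limma adjusted p 0.386), but 1.55 without pillar tree 4 and 1.31 within lane 6. Its r with CCD4 over the 8 trees was -0.51 and Spearman's rho -0.67. Once growth habit means were taken off, its r with CCD4 was 0.76, with tree 4 the highest pillar tree in both genes. Taken the same way, r was 0.38 for Prupe.2G128500 and -0.26 for Prupe.1G328300, described next. Prupe.2G128500, matched to a pentatricopeptide repeat-like protein, had 2.47, 1.70, 2.07 and 1.21 TPM in pillar trees 4, 7, 8 and 10, against 0.32, 1.2, 0.35 and 0.34 TPM in standard trees 7, 8, 9 and 10. Standard tree 8 lay just below pillar tree 10, and the log2 fold change was 1.21 (SE 0.30, limma adjusted p 0.605). This gene also lies on Pp02, the chromosome of TAC1. Prupe.1G328300, matched to a tyrosine phosphatase, had 10.8, 31.3, 12.7 and 17.5 TPM in pillar trees 4, 7, 8 and 10, against 12.4, 3.13, 1.43 and 6.21 TPM in standard trees 7, 8, 9 and 10. The growth habits overlapped through pillar tree 4 and standard tree 7, with a log2 fold change of 1.78 (SE 0.56, limma adjusted p 0.847), and within lane 6 (1.63) the criteria were not met.

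The other 5 members did not meet the criteria, with log2 fold changes of 0.53 to 0.80. The most abundant of them, Prupe.6G138800, also matched to a short-chain dehydrogenase, had 96.3, 42.0, 192 and 89.7 TPM in pillar trees 4, 7, 8 and 10, against 24.0, 76.0, 101 and 63.1 TPM in standard trees 7, 8, 9 and 10. The trees of both growth habits were widely scattered and overlapped, and the log2 fold change was 0.64 (SE 0.52, limma adjusted p 0.902). It was 0.22 without standard tree 7, 0.28 without pillar tree 8 and 1.01 without pillar tree 7. HAB1 (Prupe.7G204800), named for an Arabidopsis phosphatase that damps abscisic acid signalling, had 34.5, 9.00, 8.92 and 9.33 TPM in pillar trees 4, 7, 8 and 10, against 8.29, 9.92, 4.95 and 13 TPM in standard trees 7, 8, 9 and 10. Without pillar tree 4, its log2 fold change was 0.08 in place of 0.55.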

How the data were processed

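RNA was sequenced from branch tips of 8 peach trees, 1 library per tree, grouped as pillar (4) or standard (4) by the growth habit in the labels. The authors aligned single short reads to version 2 of the peach genome with CLC Genomics Workbench, allowing a read up to 10 places, and deposited TPM per gene and tree. They also deposited a score for the fold change, a log2 fold change and p-value columns of their own comparison, which were not used. Each of the 26873 genes has 2 rows, 53746 in all, and the second, at 0 in every tree, was left out. Gene lengths are those of gene regions, introns included. Within a tree, TPM times length is a whole multiple of 1 read: 100% of nonzero values under 10000 reads came out whole within 0.05, so reads were recovered for depth, counting intervals (95%, exact Poisson, counting error only), the minimum of 5 reads and limma-voom.

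limma 3.58.1 in R 4.3.3 (lmFit, eBayes with trend) was fitted to log2(TPM + 0.5) of the 20055 genes that averaged 0.5 TPM or more, and p-values were adjusted by Benjamini-Hochberg over all of these. The criteria of the study were applied to limma p-values in place of those from CLC, so called genes can differ from the study's list. Summaries and plots used Python 3.11.15 with numpy 2.4.6, pandas 2.3.3, scipy 1.17.1 and matplotlib 3.10.9. Scripts were tested on simulated data. CCD4, the lists and the tests were chosen with earlier results of these data known. Named were CCD4, TAC1, the 5 nearest tested genes on each side, neighbours past the criteria or listed by the study, the 5 genes with the highest and the 5 with the lowest r, other cleavage genes, and list members past the criteria or most abundant. Other genes are named where a result turns on them, after their values were seen. Gene names come from the study's own list of genes that differed. As the reference table gives no product names, the planned lists of carotenoid, strigolactone and tissue marker genes and other cleavage genes were not analysed here. Alternatives were RPKM, upper-quartile scaling, pseudocounts of 0.1 and 1, other filters, each tree left out, tree number as a block, lane 6 alone, limma-voom, no trend and other windows. The distance bands, the share of CCD4 in the sum of its neighbours and the cluster on Pp01 were added after seeing the data.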

Additional observations from a re-analysis of the deposited data

Results flagged for a closer look

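In 6 of the 78 groups of 4 trees looked at, over 39 named genes, 1 tree stood far from the other 3 for the range of its group, which chance gives in about 1 in 20 groups. CCD4 itself was not among them. Beside CCD4, Prupe.1G256000 had 25.6 TPM in standard tree 10 and 20.9 to 21.7 TPM in the other standard trees, and Prupe.1G256100 had 5.33 TPM in pillar tree 4 and 2.89 to 2.99 TPM in trees 7, 8 and 10. Prupe.1G256200, the nearest gene past the criteria, had 8.37 TPM in standard tree 8 and 13.8 to 14.4 TPM in the other standard trees. In the abscisic acid category, HAB1 (Prupe.7G204800) had 34.5 TPM in pillar tree 4 and 8.92 to 9.33 TPM in trees 7, 8 and 10, and Prupe.2G128500 had 1.2 TPM in standard tree 8 and 0.32 to 0.35 TPM in the other standard trees. Prupe.6G204700, a match of the first enzyme of the plastid isoprenoid pathway and named after its values were seen, had 81.8 TPM in pillar tree 4 and 25.8 to 34.9 TPM in the other pillar trees. Of the 6, 3 were pillar tree 4 at the top, the pillar tree with the highest CCD4.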

How the results depend on the processing

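The log2 fold change of CCD4 was negative in every alternative run. It lay between -1.66 (without pillar tree 4) and -1.17 (without pillar tree 10) when 1 tree was left out, and was -1.93 within lane 6. The replicate block by tree number gave CCD4 -1.61, and 6 neighbours past the criteria with 5.47% of all tested genes. The labels give numbers 7, 8 and 10 to a tree of each growth habit, but the deviations of same-numbered trees correlated at 0.29, 0.10 and -0.09 and no label says that they share an origin, so the trees share only a number.

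The count of 4 neighbours past the criteria ranged between 1 (without pillar tree 7) and 5 over the trees left out. It was 2 without pillar tree 8 and 2 without standard tree 9. It was 14 within lane 6, 7 in a window of 2 Mb, where 420 genes were tested, and 0 at an adjusted p under 0.05. The count of other cleavage genes past the criteria, 1, was 0 or 1 when a tree was left out. Of the 10 genes most like or unlike CCD4, 4 were shared with Spearman's rho and 1 once growth habit means were taken off. The cause of these changes was not tested. The block also ended the calls of Prupe.1G256200 (0.59) and Prupe.1G264700 (-0.46). Of the named genes not past the criteria, Prupe.1G253100 was -0.06 without pillar tree 8 and HAB1 -0.16 with the block, in place of 0.40 and 0.55. Scaling moved the median log2 fold change of all tested genes little, from -0.09 to -0.05 both by RPKM and by upper quartile. With 4 trees in each growth habit and few reads for low genes, a modest change of a neighbour may not have been detectable.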

Other observations

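A gene upstream of carotenoid synthesis and a gene of strigolactone perception were looked at for their levels and were named after their values were seen. Prupe.6G204700, a match of the gene for the first enzyme of the plastid isoprenoid pathway, which feeds carotenoid synthesis, had 81.8, 34.9, 25.8 and 34 TPM in pillar trees 4, 7, 8 and 10, against 19.6, 40.8, 18.4 and 33.1 TPM in standard trees 7, 8, 9 and 10. The growth habits overlapped, and its log2 fold change of 0.58 (SE 0.38, limma adjusted p 0.902) was 0.24 without pillar tree 4. Prupe.1G423400, a match of the strigolactone receptor gene D14, had 60.4, 83.5, 52.2 and 55.0 TPM in pillar trees 4, 7, 8 and 10, against 36.9, 37.2, 42.5 and 52.6 TPM in standard trees 7, 8, 9 and 10. Pillar tree 8 lay just under standard tree 10, and the log2 fold change was 0.55 (SE 0.18, limma adjusted p 0.853), under the fold change limit of 1.5. It met the criteria by upper-quartile scaling (0.60), by limma-voom (0.59) and without pillar tree 8 (0.63), pillar tree 10 (0.61) or standard tree 10 (0.66).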
